A study of Mus musculus with 20 samples.

Results

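The transporters that carry drugs, bile salts and conjugated metabolites into and out of the hepatocyte were examined in mouse liver after repeated oral exposure to benzo[a]pyrene (BaP), a polycyclic aromatic hydrocarbon and carcinogen. The set held 9 genes: the uptake carriers Slco1a1 and Slco1a4, the efflux pumps Abcc2, Abcc3, Abcc4, Abcb1a, Abcb4 and Abcg2, and the cation exporter Slc47a1. A probe was taken as a member when its transcript accession on the array mapped to 1 of these symbols, without regard to its values. That gave 14 probes, 2 each for Abcc3, Abcc4, Abcb4, Abcg2 and Slc47a1 and 1 each for the other 4 genes, out of 41174 probes and 16535 named genes on the array. All 14 passed the presence filter, a liver signal above the negative control spots on at least 4 of the 5 arrays of some group, as did 27346 probes in all.

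The livers came from 20 adult male Muta™Mouse animals (transgenic mouse strain 40.6, which carries a bacterial reporter gene for mutation assays), 25 weeks old. Groups of 5 received olive oil alone (control) or BaP in olive oil at 25, 50 or 75 mg/kg/day by daily oral gavage for 28 days, and tissue was taken 3 days after the last dose, so the values describe the liver after a recovery period and not during dosing. Each liver RNA, labelled with Cy5, was hybridised on a 2-color Agilent array against Cy3-labelled universal mouse reference RNA, a pool made from mouse cell lines, and every value below is a log2 ratio of liver to reference signal. A ratio places the same probe in different livers and does not rank different probes or genes.

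The sample labels name the source as lung in 1 field and as part of the liver in another. Of 8 hepatocyte markers, the 6 on the array (Alb, Ttr, Apoa1, Apob, Tat and Fgb) were well above background on all 20 arrays. Of 7 lung epithelium markers, Sftpc and Sftpb, the surfactant proteins of alveolar cells, were well above background on 0 of 20 arrays, Cldn18 and Ager on 1 each and Scgb1a1 on 5, while Sftpa1, another surfactant protein, was so on 16 and Sftpd on 19. The liver reading of the labels therefore rests on the hepatocyte markers and the study's methods, and the part of lung RNA in these signals was not tested. Between 51.9% and 67.5% of spots per array were well above background, no spot was saturated, and arrays of the same group correlated at 0.93 to 0.98 across probes. Within a group, a typical (median) probe had an SD of 0.217 on the log2 scale. The 20 arrays lay on 6 slides. Slides 1 to 3 held 1 array of each group, slides 4 and 5 held only the 25 and 75 mg/kg/day groups, and slide 6 held 2 controls and 2 arrays of the 50 mg/kg/day group. All 25 mg/kg/day arrays were at the second and all 75 mg/kg/day arrays at the fourth position of a slide. For those groups dose and position cannot be told apart. Most controls were at the first position and most 50 mg/kg/day arrays at the third. A trend with dose is therefore largely also a trend with position.

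As background, drugs and bile constituents cross the hepatocyte in a directed way. Organic anion transporting polypeptides of the Slco family take up anions from blood at the sinusoidal membrane, enzymes inside the cell oxidise and conjugate them, and ATP-binding cassette (ABC) pumps at the canalicular membrane export the products into bile, while other pumps at the basolateral membrane return them to blood. BaP binds the aryl hydrocarbon receptor (AhR), which acts on genes through xenobiotic response elements, and oxidative stress acts through NRF2 at antioxidant response elements; both pathways, with the nuclear receptors CAR and PXR, are known regulators of transporter genes in liver.

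None of the 14 transporter probes was called different from control at any dose with limma, at an adjusted p below 0.05 and a fold change over 1.5. The same rule called 0%, 0% and 0.135% of the 27346 present probes at 25, 50 and 75 mg/kg/day (37 probes at the top dose, 36 higher and 1 lower), so a count of 0 among 14 is also what this background gives. At an unadjusted limma p below 0.05, 0, 1 and 2 transporter probes passed at the rising doses (Slco1a4 at the middle dose, the brighter Abcc4 and the dimmer Abcc3 probe at the top dose), beside 7.81%, 6.7% and 11.2% of all present probes. All 5 exposed arrays exceeded all 5 controls for 0, 0 and 1 transporter probes at the 3 doses, and for 0.559%, 0.527% and 0.936% of all present probes. When dose was fitted as a number, the trend passed an adjusted p below 0.05 for 0 of 14 transporter probes and for 0.157% of all present probes, and an unadjusted p below 0.05 for 3 of 14 (the brighter Abcc4 probe, the dimmer Abcc3 probe and Slco1a4) and 8.58%.

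Taking the brighter probe for each gene, the median log2 difference from control over the 9 transporters was 0.07, 0.16 and 0.24 at 25, 50 and 75 mg/kg/day, where the median over all present probes lay within 0.01 of 0. The sign was positive for 9, 9 and 7 of the 9 genes. This leaning was not stable: with slide as a fixed block the median at 75 mg/kg/day was 0.07 with 6 genes above 0, on the 3 slides that hold every group it was 0.02, 0.03 and 0.08 at the 3 doses with 5, 6 and 6 genes above 0, and with array median centring, which moved the median of all present probes by 0.11, -0.08 and 0.10, the transporter median was 0.35, 0.07 and 0.46 with 9, 6 and 9 genes above 0. The hepatocyte markers leaned the same way, with 6 of 6 above 0 at each dose, median differences of 0.31, 0.25 and 0.39 and 0 called; the mean log2 ratio of the 6 ranged from 4.65 to 5.93 in controls and from 5.43 to 5.81 at 75 mg/kg/day. Other cell types leaned upward too: endothelial markers had medians of 0.36, 0.29 and 0.41 with 7, 8 and 8 of 8 above 0 and 1 called at the top dose (Lyve1, 2.23), stellate cell and fibroblast markers had medians of 0.26, 0.48 and 0.34 with 4, 5 and 4 of 7 above 0 and 0 called, and Kupffer cell markers had medians of 0.17, 0.12 and 0.08 with 1 of 7 called at the top dose (Marco, 2.19). Bile duct markers had medians of -0.13, -0.13 and -0.07 and leukocyte markers of 0.10, 0.09 and 0.13, with 0 called in either. The 4 present lung epithelium markers had medians of 0.07, 0.22 and 0.10, with 0 called. Among them Sftpd was the largest at 75 mg/kg/day, at 1.19 (limma adjusted p = 0.0688) with 5 of 5 livers above all controls. The next was Ager at 0.15. The part of these cell types in the transporter values was not tested. In tissue RNA of this kind, fewer cells of a type and less RNA per cell cannot be told apart.

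**Figure D1:**
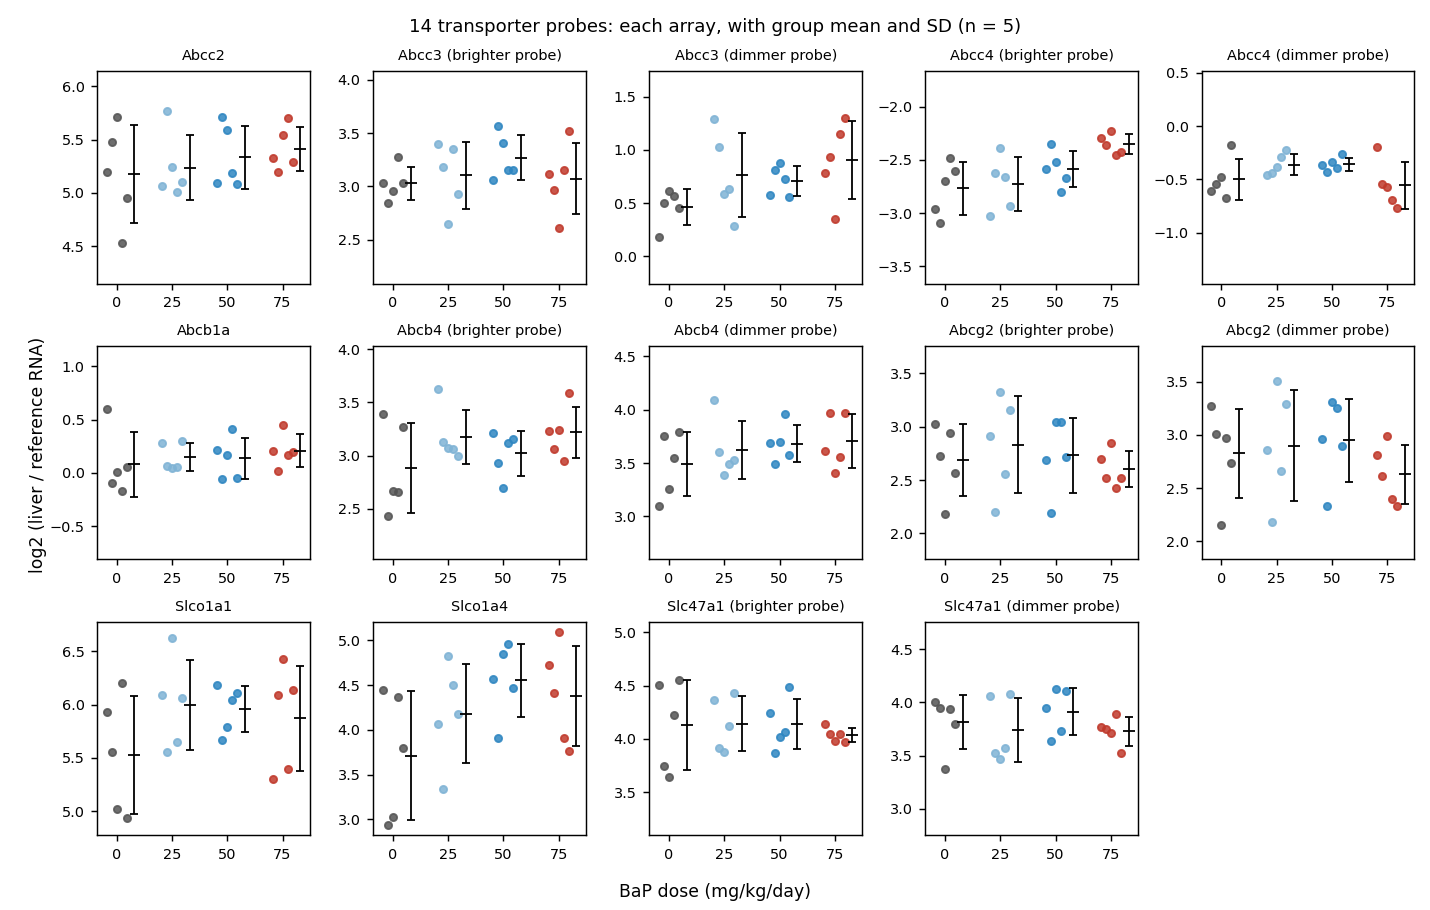
Log2 ratio of liver to reference RNA (y axis) for each of the 14 transporter probes against BaP dose in mg/kg/day (x axis); points are single livers in replicate order and the black bars give the mean and SD of 5. Exposed and control livers overlap in every panel and dose except the brighter Abcc4 probe at 75 mg/kg/day, where the 5 livers sit between -2.46 and -2.23 and all 5 controls at -2.49 or below.

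The 2 uptake carriers had the widest spread of the set. Slco1a4 (Oatp1a4), which takes up organic anions and cardiac glycosides, had log2 ratios of 4.45, 2.94, 3.02, 4.37 and 3.80 in the 5 controls. At 25 mg/kg/day the values were 4.06, 3.34, 4.83, 4.50 and 4.18, and at 50 mg/kg/day they were 4.56, 3.91, 4.85, 4.96 and 4.47. At 75 mg/kg/day they were 4.72, 4.41, 5.10, 3.91 and 3.76. The spread in controls came from 2 livers near 3, and 4 of the 5 livers at 50 mg/kg/day lay above every control, but the fifth did not and the groups overlapped at each dose. The log2 difference from control was 0.47, 0.84 and 0.67 (SE 0.33 for each). The largest, at 50 mg/kg/day, is a 1.79-fold higher mean with a 95% confidence interval from 1.12-fold to 2.86-fold. Its adjusted limma p was 0.697 (unadjusted 0.0179). Both low controls were on slide 6, where the 2 arrays at 50 mg/kg/day were 1.40 higher on average; on slides 1, 2 and 3 the same difference was 0.10, 1.17 and 0.12. Over those 3 slides alone, with slide as a block, the difference at 50 mg/kg/day was 0.46 (adjusted p = 0.333), and with all slides and slide as a fixed block it was 0.84 (adjusted p = 0.266). Within slides, the exposed value was above control on 4 of 4 slides at 50 mg/kg/day and on 3 of 3 at 75 mg/kg/day, where the differences ran from 0.04 to 1.30.

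Slco1a1 (Oatp1a1), a sinusoidal carrier of sulfated and glucuronidated steroids and of bile salts that male mice express more than females, measured 5.93, 5.56, 5.02, 6.20 and 4.93 in controls. The exposed livers ranged from 5.55 to 6.62, from 5.67 to 6.18 and from 5.31 to 6.43 in order of dose. Every group overlapped the controls, and the highest control exceeded all 5 livers at 50 mg/kg/day. The differences were 0.47, 0.43 and 0.35 (SE 0.25 for each; limma adjusted p = 0.661, 0.781 and 0.644). The reference RNA was well above background for this probe on 1 of 20 arrays, so the ratio rests on a dim denominator: with the scanner software's own background subtraction the differences were 1.45, 1.25 and 1.22, and with the liver channel alone they were 0.19, 0.16 and 0.15, none of them called. Slco1a1 and Slco1a4 are near neighbours in the Slco1a cluster on mouse chromosome 6. Across the 20 arrays their log2 ratios correlated at 0.59, and at 0.50 after each slide's mean was removed, as a description of arrays that share slides and hybridisation.

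Abcc2 (Mrp2), the canalicular pump of bilirubin glucuronides and glutathione conjugates, measured 5.20, 5.48, 5.71, 4.53 and 4.95 in controls and 5.32, 5.20, 5.55, 5.70 and 5.29 at 75 mg/kg/day. The highest control exceeded every 75 mg/kg/day liver. Its mean went from 5.17 in controls to 5.24, 5.33 and 5.41 with dose, and the differences of 0.06, 0.16 and 0.24 (SE 0.20 for each) were all within the control SD of 0.46, with adjusted limma p of 0.953, 0.911 and 0.682. The level varied more between slides than between dose groups: slide means ran from 4.95 to 5.73, and 71.7% of its sum of squares lay between slides against 8.70% between dose groups. Within slides 1, 2 and 3, the 75 mg/kg/day liver was above its control by 0.67, 0.60 and 0.13, and over those slides with slide as a block the adjusted p of 0.13 was the lowest of its alternatives and not called.

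Abcb4 (Mdr2) moves phosphatidylcholine into the outer leaflet of the canalicular membrane so that bile can carry it. Its brighter probe had a group mean of 2.88 ± 0.42 (SD, n = 5) in controls and 3.18 ± 0.25, 3.02 ± 0.21 and 3.22 ± 0.24 in the exposed groups. The differences of 0.29, 0.14 and 0.33 (SE 0.17) had adjusted limma p of 0.683, 0.912 and 0.482. The dimmer probe gave 0.13, 0.19 and 0.22 (SE 0.16), also not called. The brighter probe had the largest share of variation between slides in the set, 77.2%, and its difference at 75 mg/kg/day was 0.07 with slide as a fixed block, 0.08 on the 3 complete slides and 0.01 in the liver channel alone.

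Abcg2 (Bcrp), a canalicular pump of sulfate conjugates and of many xenobiotics, stood within 0.20 of control on both probes at every dose. The brighter probe differed by 0.14, 0.05 and -0.09 (SE 0.20) and the dimmer by 0.07, 0.12 and -0.20 (SE 0.24). The control livers measured 3.03, 2.72, 2.18, 2.94 and 2.57 on the brighter probe and 3.27, 3.00, 2.16, 2.97 and 2.74 on the dimmer one, and in both lists the third liver is the lowest. The probes moved together across the 20 livers with a correlation of 0.96, and 0.97 after removal of slide means, so both probes recorded much the same differences between livers, over ranges of 1.15 and 1.35.

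Abcb1a, which encodes a P-glycoprotein that exports bulky hydrophobic drugs, was near the detection limit in these livers. Of 5 arrays per group, 0 control arrays and 2, 1 and 2 exposed arrays (in order of dose) had it well above background. The log2 differences were 0.07, 0.06 and 0.13 (SE 0.13 for each; limma adjusted p = 0.914, 0.959 and 0.754), and no fold is given, because 0 control arrays and a minority of the exposed arrays measured the gene.

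Slc47a1 (Mate1), a proton-coupled exporter of organic cations into bile, gave differences near 0 when slide was not a term of the model. The brighter probe differed from control by 0.01, 0.00 and -0.10 (SE 0.17) and the dimmer by -0.08, 0.10 and -0.09 (SE 0.15), with adjusted limma p between 0.873 and 0.998 over both probes at 50 and 75 mg/kg/day. At 75 mg/kg/day the brighter probe measured 4.14, 4.05, 3.98, 4.05 and 3.97, inside the control range from 3.64 to 4.55 on every array. Its SD there was 0.07 against 0.42 in controls. On slides 1 to 3 the 75 mg/kg/day liver was below its own slide's control on 3 of 3 slides with either probe. For the brighter probe it was lower by 0.18 to 0.57. Over those slides, with slide as a block, the difference of the brighter probe at 75 mg/kg/day was -0.37 (limma adjusted p = 0.243), not called.

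The pumps of the basolateral membrane are Abcc3 (Mrp3), which returns glucuronides and bile salts to blood, and Abcc4 (Mrp4), which exports sulfated bile acids, steroids and cyclic nucleotides. Abcc4 came closest to a call. Its brighter probe, which was well above background on all 20 arrays, measured -2.96, -3.09, -2.70, -2.49 and -2.60 in controls and -2.29, -2.36, -2.23, -2.46 and -2.42 at 75 mg/kg/day. The 5 livers at the top dose did not overlap the controls, and each was higher. At 25 mg/kg/day the values were -3.02, -2.62, -2.39, -2.66 and -2.93, and at 50 mg/kg/day -2.59, -2.35, -2.52, -2.80 and -2.67, both overlapping the controls. The differences were 0.04, 0.18 and 0.42 (SE 0.13); the last is a 1.33-fold higher mean with a 95% confidence interval from 1.11-fold to 1.61-fold, an unadjusted limma p of 0.00417 and an adjusted p of 0.237. The fold itself was under the 1.5-fold limit. Its trend with dose, 0.42 over the range to 75 mg/kg/day (SE 0.12), had an adjusted p of 0.244. Across the other settings the difference at 75 mg/kg/day stayed above 0, from 0.18 to 0.68, with adjusted p from 0.131 to 0.489, and within slides 1, 2 and 3 it was 0.12, 0.37 and 0.67.

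The dimmer Abcc4 probe did not share that pattern. It measured -0.61, -0.54, -0.48, -0.68 and -0.18 in controls and -0.20, -0.54, -0.57, -0.70 and -0.77 at 75 mg/kg/day, and the groups overlapped throughout. Its difference there was -0.06 (SE 0.11, 95% confidence interval -0.28 to 0.16, limma adjusted p = 0.881). The liver signal of this probe was well above background on 7 of 20 arrays, against 20 of 20 for the brighter one, and across the arrays the probes correlated at -0.09. When the 2 probes were averaged, the difference for Abcc4 at 75 mg/kg/day was 0.18 with an adjusted p of 0.489.

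Abcc4 has 2 start sites in RefSeq and its start region is shown because this gene came nearest to a call. The windows run from 250 bases before to 50 bases after a start site (GRCm38.p6, on the strand of the gene, 5′ to 3′), and capitals mark GCGTG, the core of a xenobiotic response element, and TGACNNNGC, an antioxidant response element, each searched on both strands. The Abcc2 window, which holds 1 TGACNNNGC, and the Slco1a4 window, which holds neither, are set beside them, the latter as the gene with the largest difference at any dose. In the second Abcc4 window the TGACNNNGC and GCGTG matches do not overlap each other.
Abcc4 start at chr14:118676882-118677181, minus strand: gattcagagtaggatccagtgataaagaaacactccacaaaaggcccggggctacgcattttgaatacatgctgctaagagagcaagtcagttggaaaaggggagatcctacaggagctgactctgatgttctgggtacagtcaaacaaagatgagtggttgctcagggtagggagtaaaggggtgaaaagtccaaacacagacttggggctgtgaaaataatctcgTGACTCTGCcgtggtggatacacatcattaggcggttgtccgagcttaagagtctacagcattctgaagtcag
Abcc4 start at chr14:118706170-118706469, minus strand: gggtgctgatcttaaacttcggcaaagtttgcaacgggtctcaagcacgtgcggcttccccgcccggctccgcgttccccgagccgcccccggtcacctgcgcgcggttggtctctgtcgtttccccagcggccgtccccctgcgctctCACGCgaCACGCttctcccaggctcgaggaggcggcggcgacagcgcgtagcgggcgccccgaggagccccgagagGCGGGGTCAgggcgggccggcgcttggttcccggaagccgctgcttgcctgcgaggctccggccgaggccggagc
Abcc2 start at chr19:43782058-43782357, plus strand: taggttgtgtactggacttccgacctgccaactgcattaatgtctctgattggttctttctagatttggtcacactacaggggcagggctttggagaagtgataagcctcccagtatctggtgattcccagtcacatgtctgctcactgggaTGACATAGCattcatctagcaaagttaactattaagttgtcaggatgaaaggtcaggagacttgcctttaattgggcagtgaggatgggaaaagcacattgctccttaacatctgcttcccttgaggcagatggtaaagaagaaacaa
Slco1a4 start at chr6:141856171-141856470, minus strand: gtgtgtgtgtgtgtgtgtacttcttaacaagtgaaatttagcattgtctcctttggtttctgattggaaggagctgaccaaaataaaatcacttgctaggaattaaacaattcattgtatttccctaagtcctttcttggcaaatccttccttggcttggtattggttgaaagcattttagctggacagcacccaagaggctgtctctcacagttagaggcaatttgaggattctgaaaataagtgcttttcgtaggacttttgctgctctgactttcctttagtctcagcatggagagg
RefSeq gave 10 such windows for 7 of the 9 genes and none for Abcc3 or Slc47a1. GCGTG was found in 3 of the 10 windows, 1 each of Abcc4, Abcb4 and Abcg2, and in 32.4% of all 32851 windows of the mouse genome; TGACNNNGC was found in 4 of the 10, in both Abcc4 windows, Abcc2 and Abcb1a, and in 12.4% of all. A match of letters is not a bound site, and none of these genes was called different from control.

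Abcc3 was measured by a bright and a dim probe that also disagreed. The brighter probe, with a liver signal 84.4 times its background at the median array, gave differences of 0.07, 0.24 and 0.05 (SE 0.16) and an adjusted limma p of 0.945 at 75 mg/kg/day. The dimmer probe, at 1.56 times background, measured 0.18, 0.50, 0.61, 0.57 and 0.46 in controls and 0.78, 0.93, 0.35, 1.15 and 1.30 at 75 mg/kg/day. There 4 of the 5 exposed livers lay above every control and 1 lay within their range. Its difference was 0.44 (SE 0.17, 95% confidence interval 0.08 to 0.80) with an unadjusted p of 0.0203 and an adjusted p of 0.352, and with slide as a fixed block it was 0.27. Between slides lay 73.6% of its sum of squares, against 27.0% between dose groups. The probes correlated at 0.60 over the 20 livers and at 0.39 after slide means were removed.

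**Figure D2:**
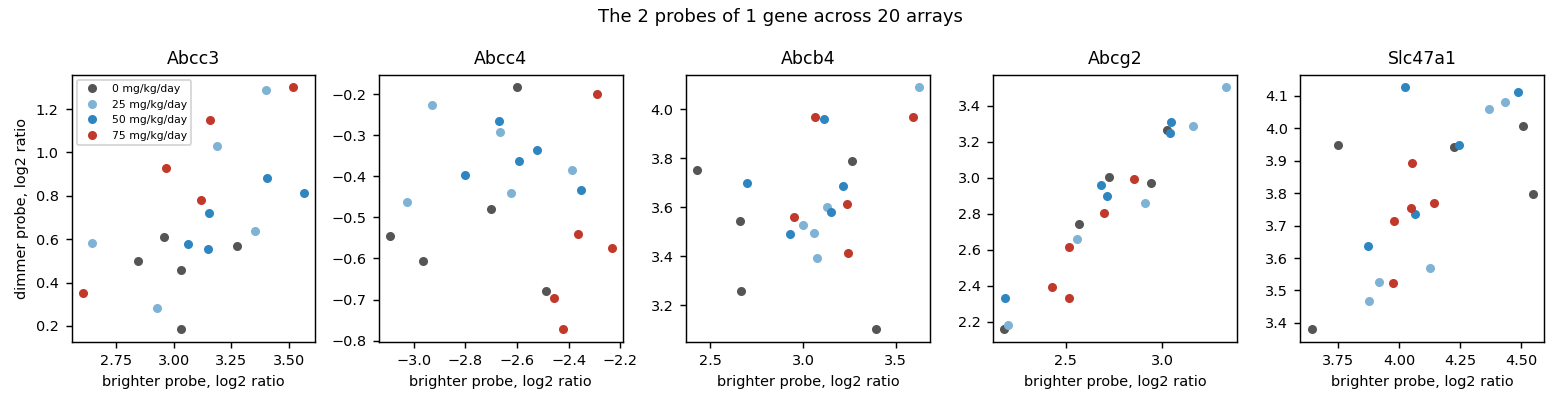
Each panel plots, for 1 of the 5 genes with 2 probes, the log2 ratio of the dimmer probe (y axis) against that of the brighter probe (x axis) in 20 livers coloured by dose. The Abcg2 probes fall on a line (r = 0.96) and those of Slc47a1 and Abcc3 lean that way (r = 0.64 and 0.60), while those of Abcb4 (r = 0.27) and Abcc4 (r = -0.09) do not.

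The precision of the comparison can be read from the intervals. The 95% confidence interval of the difference lay wholly within 1.5-fold in either direction for 10, 10 and 7 of 14 probes in order of dose. These counts include Abcb1a and the dimmer Abcc4 probe at each dose, which were well above background on 5 and 7 of 20 arrays. Near background, a narrow interval does not show that a gene was measured precisely. With the scanner software's processed signals, Abcb1a differed by 0.58, 0.72 and 0.77 in order of dose. For Slco1a4 and Slco1a1 it did not at any dose: the upper ends at 50 mg/kg/day were 2.86-fold and 1.95-fold. When the 4 group means of a probe were put in order, neighbouring means differed by more than the larger of their SDs in 2 of 42 pairs, from 0.46 (control) to 0.71 (50 mg/kg/day) for the dimmer Abcc3 probe and from -2.59 (50 mg/kg/day) to -2.35 (75 mg/kg/day) for the brighter Abcc4 probe.

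**Figure D3:**
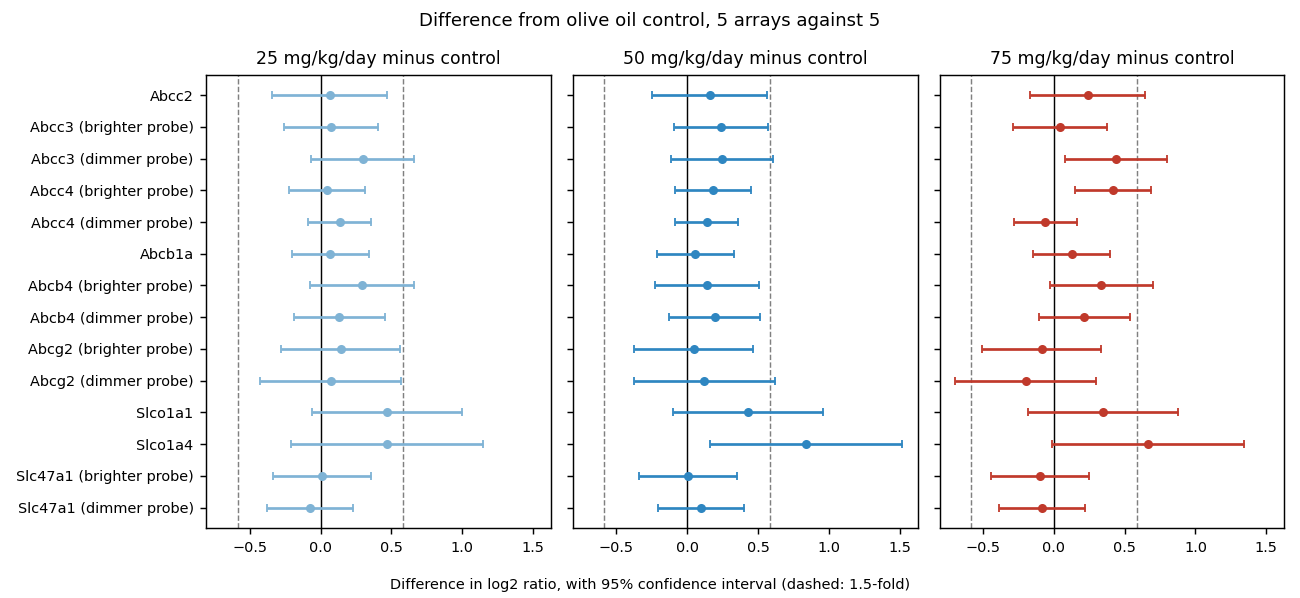
Difference in log2 ratio from control (x axis) with its 95% confidence interval for each of the 14 transporter probes (y axis) at 25, 50 and 75 mg/kg/day; the solid line is no difference and the dashed lines mark 1.5-fold in either direction. The intervals cross 0 except for Slco1a4 at 50 mg/kg/day (0.16 to 1.52) and the dimmer Abcc3 and brighter Abcc4 probes at 75 mg/kg/day (0.08 to 0.80 and 0.15 to 0.68), which do not pass adjustment over all probes.

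For most transporter probes more of the variation lay between slides than between dose groups. Taken one at a time, slide accounted for a median of 45.2% of a transporter probe's sum of squares and dose group for 12.3%, beside 40.2% and 15.4% over all present probes; slide has 6 levels and dose group 4, and a factor with more levels takes a larger share. Slide exceeded dose group in 12 of 14 transporter probes, the exceptions being both Abcc4 probes, and in 22111 of 27064 present probes with a value on every array. For the brighter Abcc4 probe the shares were 11.5% for slide and 44.3% for dose group, and for the dimmer one they were close, 26.1% and 27.2%.

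**Figure D4:**
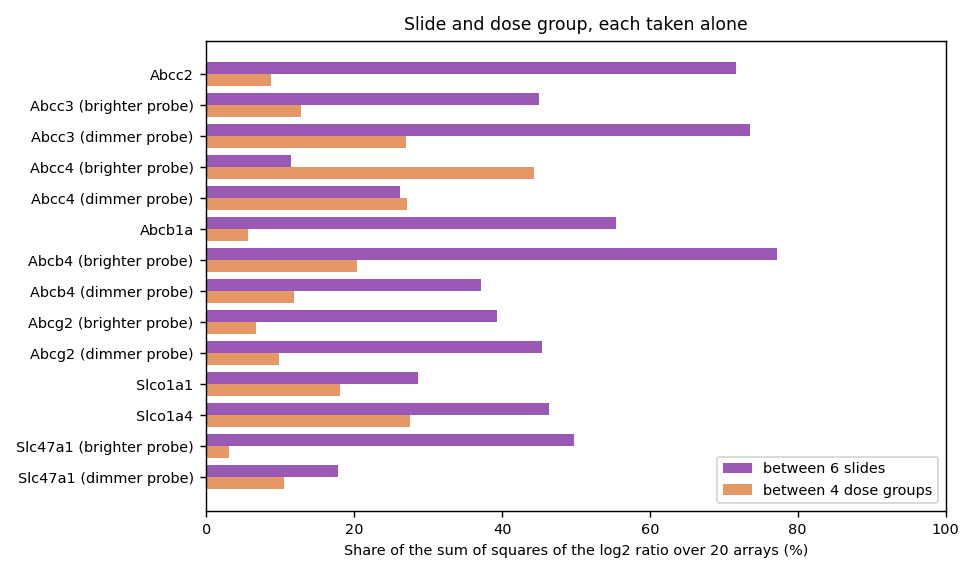
Share of the sum of squares over 20 arrays (x axis, %) that lies between the 6 slides (purple) and between the 4 dose groups (orange), each taken alone, for the 14 transporter probes (y axis). The slide bar is the longer in 12 probes, up to 77.2% for the brighter Abcb4 probe, and the dose bar in the 2 Abcc4 probes.

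The transporters varied largely apart from each other. Over the 36 pairs of the 9 genes, correlations of slide-centred log2 ratios across the 20 livers ran from -0.51 (Abcb4 with Abcg2) to 0.57, with a median of 0.18, as a description of livers that share slides and dose groups. Among 12985 other named genes, the one that followed each transporter most closely by the same measure was Sult1d1, a sulfotransferase, for Slco1a4 (0.91), Gdf10 for Slco1a1 (0.91), Igf1 for Abcc2 (0.94), Kdm7a for Abcc3 (0.85), Ggta1 for Abcc4 (0.89), Cnn3 for Abcb1a (0.80), Cyp4f14 for Abcb4 (0.90), Scfd1 for Abcg2 (0.93) and Rnf10 for Slc47a1 (0.85). Each was picked as the highest of all genes compared. Without removal of slide means, the correlations of these pairs ran from 0.24 (Abcc2 with Igf1) to 0.92 (Abcg2 with Scfd1).

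Other genes listed as transporters of the hepatocyte were not called either. Of 19 further uptake carriers, 16 were present and 0 were called at 75 mg/kg/day, with 11 above 0 and a median difference of 0.15. The largest were Slc16a7, a monocarboxylate carrier, at 0.48 (SE 0.20) and Slc22a30 at 0.47 (SE 0.21). The lowest adjusted limma p was 0.196, for Slc10a1 (Ntcp), the sodium-dependent bile salt carrier, at 0.42 (SE 0.12) with 4 of 5 exposed livers above all controls. Of 18 further genes listed as efflux pumps, 15 were present and 0 called, with a median of 0.31 and 12 above 0. The list is mixed, and Slc51b and Abcc9, for example, are not export pumps. Slc51b, Abcc9 and the sterol transporter subunits Abcg8 and Abcg5 gave 0.47, 0.44, 0.41 and 0.39 (limma adjusted p = 0.517, 0.594, 0.367 and 0.392). The bile salt export pump Abcb11 gave 0.37 (SE 0.32, adjusted p = 0.697).

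The receptors and factors that act on transporter genes were likewise not called, 0 of 16 present. Nfe2l2, which encodes NRF2, gave 0.48 (SE 0.19, limma adjusted p = 0.348), Nr5a2 0.42, Nr1i3 (CAR) 0.32, Nr1i2 (PXR) 0.25 and Ahr 0.15 at 75 mg/kg/day. Among genes that AhR is known to act on, 6 of 8 were present and 1 was called at 75 mg/kg/day: Nqo1, a quinone reductase that is also an NRF2 target, rose by 0.68 on the log2 scale (SE 0.13, adjusted p = 0.0386) in 5 of 5 livers above all controls. Its adjusted p ranged from 0.00754 to 0.122 over the other settings and it was called in 19 of 33. Cyp1a1, the AhR target that oxidises BaP, was well above background on 11 of 20 arrays and measured 3.64, 0.07, 0.07, 0.21 and 0.49 at 75 mg/kg/day against -0.24 to 0.56 in controls. Its difference of 0.72 (SE 0.45, adjusted p = 0.566) came from 1 liver (replicate 16) and was 0.04 without it. Tiparp differed by 0.54 (SE 0.13, adjusted p = 0.131). Of 13 present NRF2 targets, Nqo1 was the 1 called and Gstm3 gave 0.90 (adjusted p = 0.0511). Of 9 CAR and PXR targets 0 were called, with Cyp2b9 at 1.08 (SE 0.23, adjusted p = 0.0715) and Cyp3a11 at 0.62. The study, with its own test, reported Gstm3 and Cyp2b9 as higher at 75 mg/kg/day.

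Several transporters are expressed unequally in male and female mouse liver, for example Slco1a1 more in males and Slco1a4 more in females. In these male livers 0 of 14 present male-predominant and 0 of 11 present female-predominant genes were called at 75 mg/kg/day, with median differences of 0.33 and 0.51. Among them Hsd3b5, a male-predominant steroid enzyme, gave 0.48 (limma adjusted p = 0.276) and Cyp2b13, a female-predominant cytochrome P450, gave 1.44 (SE 0.40, adjusted p = 0.19). Each gene outside the transporter set was read at its brightest present probe only. The study, with its own test and without 1 sample, reported the female-predominant Cyp3a44, Cyp2b9 and Cyp2c40 as higher at 75 mg/kg/day. Here they gave log2 differences of 0.52, 1.08 and 0.51 (limma adjusted p = 0.456, 0.0715 and 0.423). Cyp3a44 had the largest fold change in the study, far above its difference here, and the reason for this gap was not tested.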

How the data were processed

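The deposited scanner files hold the spot intensity of each array as the authors extracted it with Agilent Feature Extraction (version 10.1.1.1 per the file headers), and the deposited value table holds the authors' LOWESS-normalized log2 ratios of the same arrays, which correlated with the values used here at 0.994 to 0.996 per array. Median signals were background corrected (normexp, offset 50), loess normalized within arrays with control spots at weight 0, and averaged per probe; spots marked as outliers were left out, and no transporter value was lost that way. Presence of a probe required, in the liver channel, a signal over the mean plus 3 SDs (both 5% trimmed) of 153 negative control spots on at least 4 of 5 arrays of a group. Groups were compared with limma 3.58.1 (R 4.3.3) in 1 model of 20 arrays, two-sided, with Benjamini-Hochberg adjustment over all present probes, and a call needed an adjusted p below 0.05 and a fold over 1.5. The study's own software for this test was not used here, and all 20 arrays were kept, while the study left out 1 sample after clustering that the sources used here do not name. The script was tested on simulated data. P-values measure the spread between arrays, 1 per animal. Slide was not a term of the main model, so this spread holds slide and hybridisation differences as well as those between animals. Other background corrections, normalizations, filters, slide blocks and left-out arrays were tried. The transporters, the other gene lists and the rule for named genes (every transporter probe, the called and the largest differences of each list, and the closest gene) were chosen with earlier results of these data known. The series text gives a slightly lower figure for the lowest dose than the sample labels, which were followed. Arrays have no read depth; their number limits the precision.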

Additional observations from a re-analysis of the deposited data

Results flagged for a closer look

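Of the 56 sets of 5 livers formed by 14 transporter probes and 4 dose groups, 1 held a liver far from the others. On the brighter Abcb4 probe, 1 liver at 25 mg/kg/day (replicate 6) measured 3.62, while the next highest of its group was 3.13. Chance alone gives a gap large enough to be flagged in about 1 of 20 sets, so 1 among 56 is not more than chance gives. The dimmer Abcb4 probe also had its highest value of that group, 4.09, in this liver. The array was on slide 4, where the other array, replicate 20 at 75 mg/kg/day, measured 3.59 on the brighter and 3.97 on the dimmer probe. The mean of the brighter probe on slide 4 was 3.61, against 2.68 to 3.21 on the other slides. Liver and slide cannot be told apart here.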

How the results depend on the processing

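No transporter probe was called at any dose, or by trend, under any of the alternatives: 0 of 1392 values from other settings and left-out arrays were called. The number of all probes called did move. At 25 mg/kg/day it was 0, and 0 to 2 when arrays were left out in turn (2 without control replicate 3). At 50 mg/kg/day it was 0, against 2 with a normexp offset of 0, 4 with the scanner software's processed signals, 3 and 6 with slide as a fixed and a random block, 1 on the 3 complete slides, and 0 to 1 with arrays left out. At 75 mg/kg/day it was 37, against 62 with the processed signals, 16 with array median centring, 58 and 62 with the slide blocks, 5 with only the control and the top dose fitted, 81 on the 3 complete slides, of which 31 were lower, and 25 to 72 with arrays left out (72 without replicate 19 of the top dose). A trend was found for 43 probes, against 8 with median centring, 70 in the liver channel alone, 28 among probes well above background on all arrays, 95 and 109 with the slide blocks, and 28 to 59 with arrays left out (28 without replicate 17 of the top dose). Median centring shifted the median of all present probes by 0.11, -0.08 and 0.10 at the 3 doses. The groups share no replicate numbers, so arrays were paired by slide alone. Dim signal limits Abcb1a, the dimmer Abcc3 and Abcc4 probes and the reference side of Slco1a1 and Slco1a4. Of 42 transporter values, 18 kept their sign everywhere; none of the values that changed sign was called, and the cause was not tested. Without background subtraction, the values were brighter Abcc4 -0.015 at 25 mg/kg/day, and brighter Slc47a1 -0.0063 at 50 mg/kg/day. With a normexp offset of 0, the values were Abcc2 -0.022 at 25 mg/kg/day, brighter Slc47a1 -0.0091 at 50 mg/kg/day, and dimmer Abcc4 0.056 at 75 mg/kg/day. With the scanner software's processed signals, the values were Abcc2 -0.11, dimmer Abcb4 -0.046 and brighter Slc47a1 -0.074 at 25 mg/kg/day, and dimmer Abcb4 -0.015, brighter Abcg2 -0.0088 and brighter Slc47a1 -0.073 at 50 mg/kg/day. With array median centring, the values were dimmer Slc47a1 0.15 at 25 mg/kg/day, brighter Abcb4 -0.19, brighter Abcg2 -0.18, dimmer Abcg2 -0.040, brighter Slc47a1 -0.19 and dimmer Slc47a1 -0.026 at 50 mg/kg/day, and brighter Abcg2 0.083, brighter Slc47a1 0.074 and dimmer Slc47a1 0.10 at 75 mg/kg/day. In the liver channel alone, the values were dimmer Abcb4 -0.022 and dimmer Abcg2 -0.040 at 25 mg/kg/day, brighter Abcb4 -0.12 and brighter Abcg2 -0.038 at 50 mg/kg/day, and dimmer Abcc4 0.037 at 75 mg/kg/day. With the authors' log2 ratios, the values were brighter Abcc4 -0.063, dimmer Abcc4 -0.0062 and brighter Slc47a1 -0.0058 at 25 mg/kg/day, and brighter Slc47a1 -0.0040 at 50 mg/kg/day. With slide as a fixed block, the values were brighter Abcc3 -0.048 and brighter Slc47a1 -0.19 at 25 mg/kg/day, and brighter Abcc3 -0.076 and dimmer Abcc4 0.017 at 75 mg/kg/day. With slide as a random block, the values were brighter Slc47a1 -0.076 at 25 mg/kg/day. On the 3 complete slides with slide as a block (an alternative added after the slide layout was seen), the values were brighter Abcc3 -0.14, Abcb1a -0.026, brighter Abcb4 -0.063, dimmer Abcb4 -0.0059 and brighter Slc47a1 -0.28 at 25 mg/kg/day, brighter Abcc4 -0.0039, brighter Abcg2 -0.033 and brighter Slc47a1 -0.16 at 50 mg/kg/day, and brighter Abcc3 -0.22 and dimmer Abcc4 0.050 at 75 mg/kg/day. With the mean of a gene's probes, the values were brighter Slc47a1 -0.033 at 25 mg/kg/day. Leaving out each array in turn moved the sign of Abcc2 -0.10 to 0.20, brighter Abcc3 -0.00023 to 0.19, brighter Abcc4 -0.043 to 0.12, dimmer Abcg2 -0.10 to 0.25 and brighter Slc47a1 -0.11 to 0.11 at 25 mg/kg/day, of Abcc2 -0.0024 to 0.29, Abcb1a -0.011 to 0.19, brighter Abcg2 -0.081 to 0.18, dimmer Abcg2 -0.048 to 0.27, brighter Slc47a1 -0.12 to 0.11 and dimmer Slc47a1 -0.013 to 0.16 at 50 mg/kg/day, of brighter Abcc3 -0.066 to 0.16, dimmer Abcc4 -0.15 to 0.020 and brighter Slc47a1 -0.22 to 0.0081 at 75 mg/kg/day.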
